A study of Arabidopsis thaliana with 9 samples.

Results

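On the upper part of chromosome 1, 41 genes had a signal in inflorescence tips of the receptor mutant er-2 that lay apart from the wild type, while the ligand double mutant epfl4 epfl6 differed from the wild type by less than 50% as much. They were the probe sets matched to 1 gene with a locus tag from AT1G01010 to AT1G33700 whose er-2 mean differed from the wild-type mean by at least 0.8 on the log2 scale (1.74-fold), whose epfl4 epfl6 mean differed from the wild type by less than 50% of that, and whose 3 er-2 arrays all lay above or all below the 3 wild-type arrays. Of 1579 named probe sets in this interval and 22746 probe sets tested on the array, 43 met these conditions. ECS1 and JMT were left out of the set, which left 41 probe sets for 41 genes, 24 lower and 17 higher in er-2. The values that chose the members were the levels on the 9 arrays, so the differences between genotypes given below for them are a description and carry no test. The end of the interval at AT1G33700 was also set from these data.

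The study compared gene expression in 3 genotypes of Arabidopsis thaliana, with 3 Affymetrix arrays for each and 9 arrays in all. The wild type (WT) was Col-0. The mutant er-2, which the submitters describe as allelic to er-106, carries a mutation in the gene of the receptor ERECTA (ER), and epfl4 epfl6 carries mutations in the genes of its ligands EPFL4 and EPFL6. All 3 genotypes carry the label Col-0 as genetic background. The plants were 33 d past germination, grew untreated on soil at 23 °C in continuous light, and each array is labelled as a biological replicate, with 100 ng of total RNA as input. How many plants or buds were pooled for a sample, and whether and how often the mutants were crossed to Col-0, is not given in the sources used here. DNA sequence was not measured, and whether the upper part of chromosome 1 has the same sequence in all 3 genotypes was not tested.

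ER is a receptor-like kinase of the plasma membrane with leucine-rich repeats outside the cell, and it promotes the growth of stems and flower stalks. EPFL4 and EPFL6 are small secreted proteins related to the epidermal patterning factors. They are made in the endodermis and act on ER in the phloem, so that loss of both ligands and loss of the receptor give a similar, compact inflorescence. ER lies on chromosome 2, EPFL4 on chromosome 4 and EPFL6 on chromosome 2, so none of the mutated genes is on the chromosome of the 41 members. Locus tags of Arabidopsis genes number the genes in their order along a chromosome, and this order was used below in place of coordinates.

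Over the probe sets, r between arrays was 0.9946 to 0.9973 within a genotype and 0.9817 to 0.9908 across genotypes. No named probe set reported ER, EPFL4 or EPFL6, and the labels could therefore not be checked against the mutated genes. Of 12 marker genes of flowers and floral meristems only CLV3 had a named probe set, and its WT mean of 2.84 was under all 9 lower quartiles of the arrays (3.21 to 3.33). Anther genes were present, with WT means of 10.95 for A9 and 8.61 for AMS, whereas the root epidermis gene EXP7 was at 2.78. All 6 anther markers, each with a named probe set, had a lower mean in er-2 than in WT. For 3 of the 6 the er-2 arrays all lay below the WT arrays. The largest differences from WT were those of ATA27, −1.98 in er-2 and −6.34 in epfl4 epfl6, and SHT, −1.90 and −4.66. The er-2 SDs of these genes were 1.84 and 1.23. The summed level of the 6 markers, as log2, was 11.51 to 12.06 on the WT arrays, 11.02 to 11.50 on the er-2 arrays and 10.56 to 10.80 on the epfl4 epfl6 arrays. The summed level of the 3 of 4 green-leaf markers with a named probe set was 13.08 to 13.17, 13.48 to 13.54 and 13.38 to 13.51 in the same order, and that of 2 of 3 phloem markers was 7.32 to 7.36, 7.76 to 8.21 and 7.07 to 7.22. These phloem markers went opposite ways in er-2, with differences from WT of 1.75 for SWEET11 and −1.12 for CLE44. In these bulk samples fewer cells of a type and less RNA per cell cannot be told apart. The index of 3′ minus 5′ control signal, which follows RNA and labelling quality, was 2.45 ± 0.138 in WT, 2.13 ± 0.0810 in the receptor mutant and 1.67 ± 0.0507 in the ligand mutant (SD, n = 3), and the 25S rRNA signal was 11.84 ± 0.0274, 11.84 ± 0.105 and 11.30 ± 0.150. The part of these differences in the results below was not tested.

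The 24 members that were lower in er-2 all had a WT mean above the lower quartile of every array. A fall of 0.8 or more needs a signal above the lowest ones, so this follows in part from the rule. The WT means of 8 of the 24 lay below the median of every array. Their WT means ran from 4.30 to 8.69 with a median of 7.13, their er-2 means from 2.51 to 7.82 with a median of 4.87, and the median of their epfl4 epfl6 means was 6.72. These are probe-set signals, in which binding differs from probe to probe, so levels are set against each other below only within a gene. The differences of er-2 from WT ran from −5.34 to −0.83 with a median of −1.21. A size of 1 or more was reached by 17 of the 24, of 1.5 or more by 9, of 2 or more by 6, and of 3 or more by 3.

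AT1G23960 was the member with the largest difference. Its log2 signal was 7.80, 7.91 and 7.86 on the WT arrays, 2.35, 2.73 and 2.46 on the er-2 arrays and 7.89, 7.87 and 7.87 on the epfl4 epfl6 arrays. The er-2 arrays lay below the other 6, which overlapped each other, with a gap of 5.06 to the nearest WT array, and the er-2 mean of 2.51 was the only mean of a lower member beneath the lower quartile of every array. The difference of er-2 from WT was −5.34 ± 0.0902 (SE of the limma fit, 3 arrays per genotype), or 40.5-fold, against 0.02 in epfl4 epfl6. AT1G11280 read 8.60, 8.65 and 8.76 in WT, 4.52, 3.78 and 4.23 in er-2 and 7.95, 7.95 and 7.90 in epfl4 epfl6. Its 3 genotypes were fully apart, with er-2 lowest and epfl4 epfl6 between er-2 and WT but close to WT. The differences from WT were −4.49 ± 0.151 in er-2 and −0.74 in epfl4 epfl6. AT1G06640 read 8.43, 8.61 and 8.67 in WT, 5.54, 5.43 and 5.19 in er-2 and 8.35, 8.56 and 8.42 in epfl4 epfl6, so only the er-2 arrays stood away from the rest. The difference of er-2 from WT was −3.18 ± 0.103, or 9.09-fold, and that of epfl4 epfl6 was −0.13.

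The next members in size differed more in what epfl4 epfl6 did. AT1G16260 read 7.46, 7.42 and 7.48 in WT, 4.60, 4.88 and 4.63 in er-2 and 6.32, 6.32 and 6.13 in epfl4 epfl6. Both mutants were below WT without overlap, and the epfl4 epfl6 difference of −1.20, set against −2.75 ± 0.0863 in er-2, was the largest of all members. AT1G16705 showed the same order, with 6.99, 7.25 and 7.12 in WT, 5.12, 4.88 and 5.11 in er-2 and 6.32, 6.44 and 6.26 in epfl4 epfl6. Its differences were −2.08 ± 0.0912 in er-2 and −0.78 in epfl4 epfl6. AT1G12400 was split between the mutants, at 6.51, 6.51 and 6.48 in WT, 4.28, 4.08 and 4.09 in er-2 and 7.15, 7.09 and 7.07 in epfl4 epfl6. The er-2 arrays lay below and the epfl4 epfl6 arrays above all WT arrays, with differences of −2.35 ± 0.0668 and 0.60. The same split was seen for AT1G10980, at 7.11, 7.16 and 7.12 in WT, 5.69, 5.37 and 5.58 in er-2 and 7.96, 7.91 and 7.77 in epfl4 epfl6. Against WT, er-2 stood at −1.58 ± 0.0870 and epfl4 epfl6 at 0.75. AT1G24240 was the third of this kind, at 5.26, 5.62 and 5.44 in WT, 3.91, 3.92 and 4.14 in er-2 and 6.18, 5.73 and 6.03 in epfl4 epfl6, with differences of −1.45 ± 0.128 and 0.54. These 3 were the only lower members whose epfl4 epfl6 arrays all lay above the WT arrays.

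AT1G12160 and AT1G04770 complete the 10 largest differences below WT. AT1G12160 read 5.61, 5.23 and 5.57 in WT, 3.31, 3.60 and 3.76 in er-2 and 5.25, 5.15 and 5.14 in epfl4 epfl6. AT1G04770, the member nearest the top of the chromosome, read 8.10, 8.10 and 7.87 in WT, 6.45, 6.33 and 6.27 in er-2 and 7.80, 7.81 and 7.94 in epfl4 epfl6. In both genes only er-2 stood apart, by −1.91 ± 0.126 and −1.68 ± 0.0822. The other 14 lower members differed from WT by −1.22 to −0.83. RefSeq lists 38 of the 41 members as protein-coding. The other lower members include both that it lists as pseudogenes, AT1G27285 at −1.03 and AT1G14090 at −0.83.

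**Figure D1:**
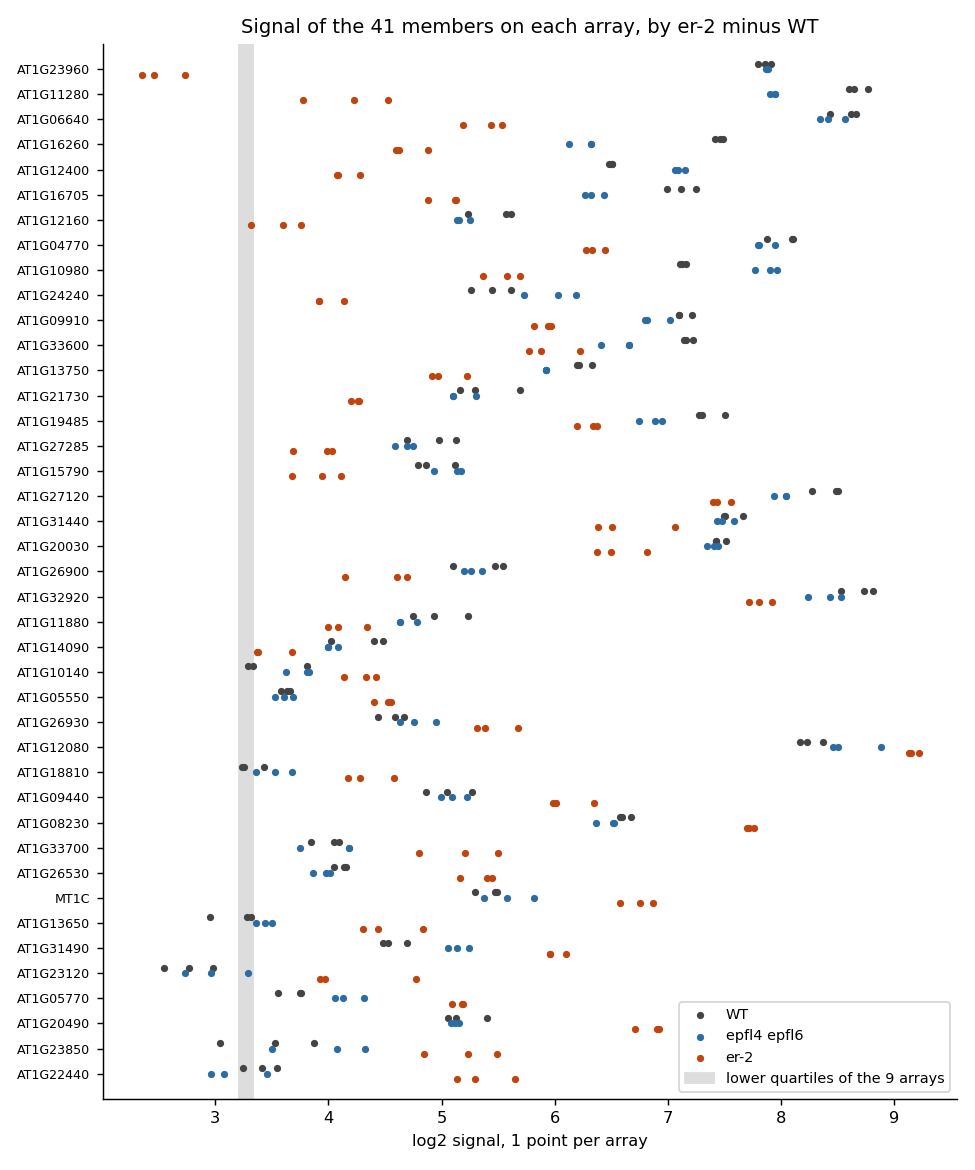
Log2 signal of the 41 members on each of the 9 arrays, 1 row per gene ordered by er-2 minus WT, with 1 point per array in the colour of its genotype and a grey band for the lower quartiles of the 9 arrays (3.21 to 3.33). The 3 er-2 points lie apart from the WT points in all 41 rows by the rule. They also lie apart from the epfl4 epfl6 points in all 41, beside 36.5% of all tested probe sets. Nothing is read from this, since the rule used the differences of both mutants from WT. The WT and epfl4 epfl6 points overlap in 24 rows and not in 17, beside 44.4% of all tested probe sets without overlap.

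The 17 members that were higher in er-2 mostly had a low signal in WT. The rule used these levels, and a signal near the lowest on the arrays cannot fall by 0.8. A difference in WT level between higher and lower members is thus partly set by the rule, and nothing is read from it. Their WT means ran from 2.77 to 8.26 with a median of 3.995, their er-2 means from 4.22 to 9.16 with a median of 5.34, and the median of their epfl4 epfl6 means was 4.04. The WT means of 15 of the 17 lay below the median of every array (5.81 to 5.91) and the er-2 means of 11 of them. For AT1G13650 and AT1G23120 the WT mean was under all 9 lower quartiles. The differences of er-2 from WT ran from 0.82 to 1.96 with a median of 1.22, 13 of 17 reached 1, 3 reached 1.5 and none reached 2. The lower members had a median of like size (−1.21) and a range that reached further from 0.

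AT1G22440 was the member furthest above WT. It read 3.55, 3.25 and 3.42 in WT, 5.30, 5.14 and 5.65 in er-2 and 3.08, 3.45 and 2.97 in epfl4 epfl6. WT and epfl4 epfl6 overlapped near the lower quartile and the er-2 arrays stood well above both, by 1.96 ± 0.154 (3.88-fold) against WT. AT1G23850 read 3.88, 3.52 and 3.04 in WT, 4.84, 5.23 and 5.49 in er-2 and 3.50, 4.33 and 4.07 in epfl4 epfl6. The er-2 arrays were above the others, which overlapped, and the difference of 1.71 ± 0.255 had the largest standard error of all 41. AT1G20490 read 5.13, 5.40 and 5.05 in WT, 6.93, 6.71 and 6.90 in er-2 and 5.08, 5.12 and 5.15 in epfl4 epfl6. Only the er-2 arrays stood apart, by 1.65 ± 0.0947, with −0.08 in epfl4 epfl6.

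MT1C (AT1G07610) was the only member with a descriptive symbol, and it encodes a metallothionein, a small cysteine-rich protein that binds metal ions. Its signal was 5.49, 5.48 and 5.30 on the WT arrays, 6.75, 6.87 and 6.58 on the er-2 arrays and 5.38, 5.58 and 5.82 on the epfl4 epfl6 arrays. The er-2 arrays were the highest 3 and the other genotypes overlapped. Against WT, er-2 differed by 1.31 ± 0.116, or 2.48-fold, and epfl4 epfl6 by 0.17.

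The epfl4 epfl6 arrays lay above the WT arrays without overlap for AT1G05770, AT1G31490, AT1G13650 and AT1G12080, and for no other higher member. The last of these differed from WT by 0.36 in epfl4 epfl6. AT1G05770 read 3.55, 3.76 and 3.75 in WT, 5.09, 5.19 and 5.18 in er-2 and 4.32, 4.05 and 4.13 in epfl4 epfl6, and its differences were 1.47 ± 0.0841 and 0.48. AT1G31490 read 4.48, 4.53 and 4.69 in WT, 5.96, 6.10 and 5.95 in er-2 and 5.24, 5.13 and 5.06 in epfl4 epfl6, with differences of 1.44 ± 0.0782 and 0.58. In both genes the 3 genotypes did not overlap. AT1G23120 and AT1G13650 are the members whose WT mean was below the lower quartile. AT1G23120 read 2.98, 2.77 and 2.54 in WT, 3.97, 3.93 and 4.77 in er-2 and 3.29, 2.96 and 2.73 in epfl4 epfl6, and its er-2 SD of 0.476, set by a single high array, was the largest of all members. Without er-2 replicate 3 its difference went from 1.46 to 1.18. AT1G13650 read 2.96, 3.28 and 3.32 in WT, 4.44, 4.84 and 4.31 in er-2 and 3.51, 3.36 and 3.44 in epfl4 epfl6, with differences from WT of 1.34 ± 0.138 in er-2 and 0.25 in epfl4 epfl6.

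AT1G26530 and AT1G33700 complete the 10 largest differences above WT. AT1G26530 read 4.05, 4.15 and 4.14 in WT, 5.16, 5.40 and 5.45 in er-2 and 4.01, 3.98 and 3.86 in epfl4 epfl6. The epfl4 epfl6 arrays were all just below the WT arrays, by −0.16 in the mean, while er-2 was 1.22 ± 0.0831 above. AT1G33700, the last member along the chromosome, read 4.09, 4.05 and 3.84 in WT, 5.50, 5.21 and 4.80 in er-2 and 4.18, 3.75 and 4.18 in epfl4 epfl6, and only er-2 stood apart, by 1.17 ± 0.174. The remaining 7 higher members differed from WT by 0.82 to 1.11.

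**Figure D2:**
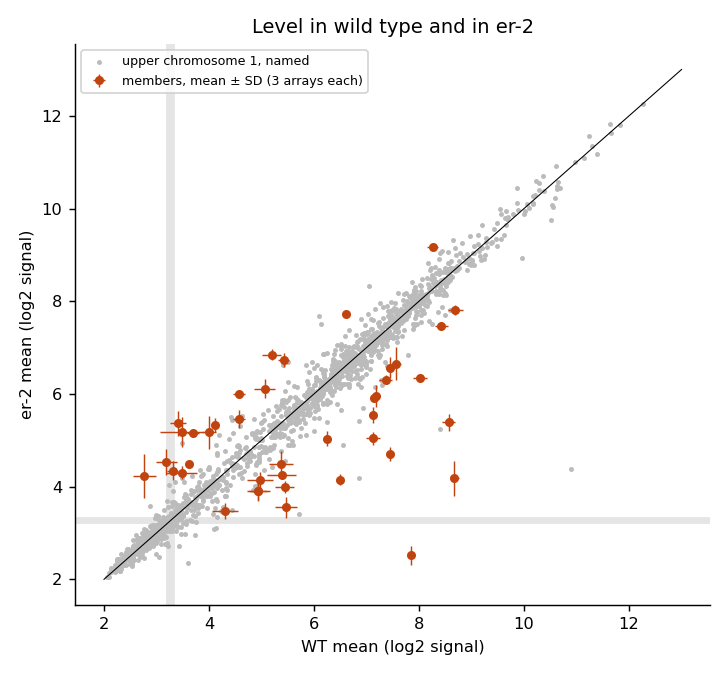
Mean er-2 signal against mean WT signal, both log2, for the named probe sets of upper chromosome 1 (grey) and the 41 members (orange, bars ± SD over 3 arrays), with the line of equal level and grey bands for the lower quartiles of the arrays. The 24 members below the line have differences of −5.34 to −0.83 and the 17 above it of 0.82 to 1.96.

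The spread within a genotype and the gap between arrays are given as a description. The rule asked for a large difference and for separate er-2 and WT arrays, so a spread that is small beside the difference follows from it. The SD over 3 arrays had a median of 0.126 in WT, 0.166 in er-2 and 0.0973 in epfl4 epfl6, and the highest SD of any genotype was 0.476. The gap between the nearest er-2 and WT arrays was 0.330 to 5.06, with a median of 0.965. AT1G13750 was listed at the same value, 5.93, on all 3 epfl4 epfl6 arrays. Several other members had equal values on 2 arrays of a genotype, such as AT1G16260 at 6.32 in epfl4 epfl6 and AT1G12400 at 6.51 in WT. Equal values lower the SD. All 41 probe sets had an identifier of the plain kind, which the manufacturer gives to probe sets designed for a single transcript, whereas 16 of the 1579 of the interval had an identifier of a shared kind. No member had a second named probe set, so each gene rests on 1 probe set.

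The epfl4 epfl6 arrays gave values that the rule limited in size but not in sign or separation. The median size of the difference from WT was 0.259 over the members, beside 0.156 over all tested probe sets, and the median signed difference was −0.26 for the lower and 0.21 for the higher members. Because the WT arrays serve both comparisons, like signs can come from the shared arrays, and each mutant's values are given only side by side. For 24 members the epfl4 epfl6 and WT arrays overlapped. For 17 of 41 they did not, and over all tested probe sets this was so for 44.4%, so the share of members was close to the background. Of these 17, 12 lay on the same side of WT as er-2 and 5 on the other. The 5 were AT1G12400, AT1G10980 and AT1G24240, which were low in er-2, and AT1G26530 and AT1G08230, which were high in er-2. AT1G08230, named here because this count is small, read 6.59, 6.57 and 6.68 in WT, 7.76, 7.72 and 7.70 in er-2 and 6.52, 6.36 and 6.52 in epfl4 epfl6. In the limma fit 15 of 41 members (36.6%) were called for epfl4 epfl6 against WT at an adjusted p under 0.05, 9 lower and 6 higher, beside 33.9% of all tested probe sets.

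The same fit called 41 of 41 members for er-2 against WT, beside 20.8% of all tested probe sets. All 24 lower members were called lower, beside 9.01%, and all 17 higher members were called higher, beside 11.8%. For er-2 against epfl4 epfl6 it called 41 of 41, beside 20.2%, and the er-2 arrays lay apart from the epfl4 epfl6 arrays in 41 of 41, beside 36.5%. The rule used the differences of both mutants from WT, which together fix the difference of er-2 from epfl4 epfl6, so nothing is read from these counts. In a fit with the 3′ minus 5′ index as a covariate 25 of 41 remained called for er-2 against WT, when 648 of 22746 probe sets were called, and 11 of 41 for er-2 against epfl4 epfl6, when 66 were. In that fit the members' median size of the er-2 difference from WT was 1.11 in place of 1.22, and their median standard error was 0.201 in place of 0.112. For er-2 against epfl4 epfl6 the median size was 1.20 in place of 1.01 and the median standard error 0.269 in place of 0.112.

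The members just inside the size limit were AT1G10140 at 0.82, AT1G14090 at −0.83 and AT1G11880 at −0.83. Just outside it were AT1G26920 at 0.78, UGT85A5 (AT1G22370), a glycosyltransferase gene, at 0.79, and AT1G13130 at −0.80 (−0.798 unrounded). Of 76 probe sets of the interval that met the size limit, 30 were kept out because epfl4 epfl6 differed from WT by 50% or more of the er-2 difference, and 3 failed both on this and on the separation of the arrays. Closest to that limit among the members, and named for that reason, was AT1G33600, with differences of −1.22 in er-2 and −0.60 in epfl4 epfl6. Left out of the set were 2 genes. ECS1 was the largest difference of the interval, with means of 10.88 in WT, 4.38 in er-2 and 10.73 in epfl4 epfl6. JMT, the gene of a jasmonic acid methyltransferase, had means of 6.93, 5.69 and 6.40.

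The members lay at unequal distances along the interval, and neither their spacing nor the order of their signs was tested. By locus tag, 172 measured named probe sets preceded the first member, AT1G04770, and no 2 members were next to each other. Between successive members there were 1 to 182 other measured probe sets, with a median of 23.5, and 10 of 40 stretches held at most 10. The longest stretch without a member, of 182, ran from AT1G27285 to AT1G31440. Both directions were mixed along the interval: 23 of 40 successive pairs were opposite in sign, and the longest run of 1 direction was 5 members.

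**Figure D3:**
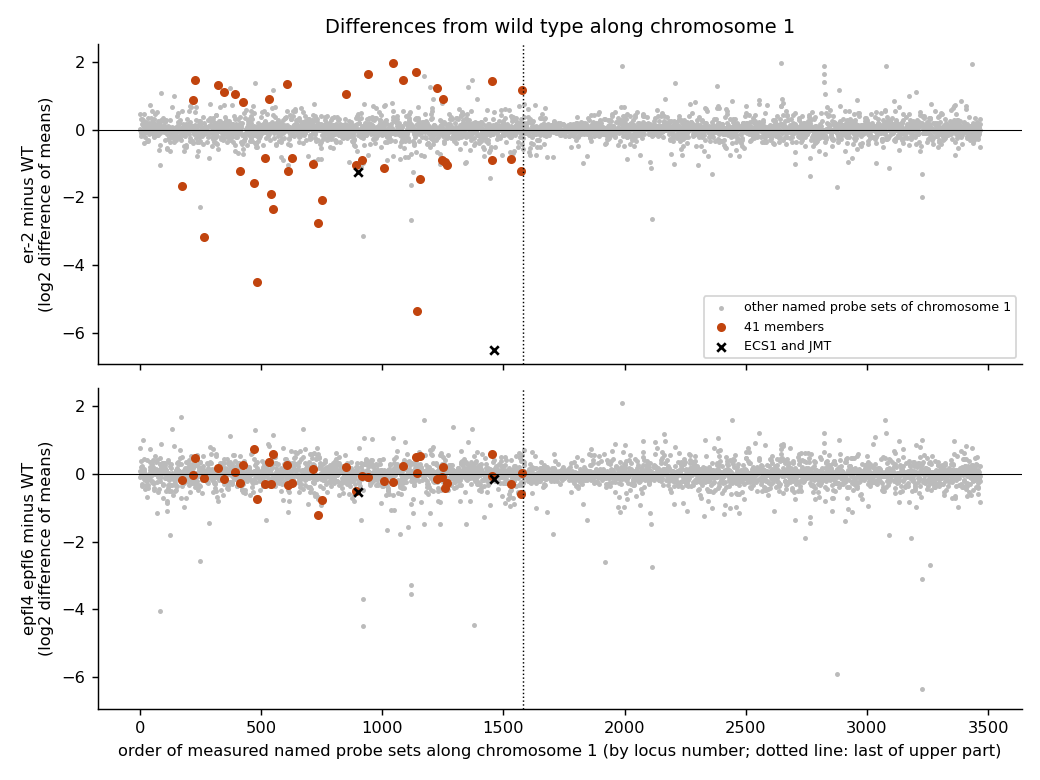
Log2 difference from WT of er-2 (top) and epfl4 epfl6 (bottom) for each named probe set of chromosome 1, placed by the order of its locus number, with the 41 members in orange, ECS1 and JMT as crosses and a dotted line at the last probe set of the upper part. Members above and below 0 are mixed over the interval in the top panel, from 1.96 to −5.34, and lie between −1.20 and 0.75 in the bottom panel.

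The nearest measured named genes on either side of each member gave 81 places and 80 genes, with a median size of the er-2 difference of 0.153, beside 0.134 for all non-members of the interval and 1.22 for the members. Of all non-members of the interval, 8.46% differed by 0.5 or more. Of the 81 neighbours, 26 differed by 0.3 or more, 13 by 0.5 or more (a larger share) and 2 by 0.8 or more. The sign was that of their member in 37. The 2 neighbours that differed by 0.8 or more were AT1G13670, with −1.04 in er-2 and −1.12 in epfl4 epfl6, and AT1G16220, with −0.86 and −0.73. Both were low in both mutants.

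AT1G23960 (−5.34) stood between AT1G23910 at −0.04 and AT1G23980 at 0.13. AT1G06640 (−3.18) stood between AT1G06630 at −0.03 and AT1G06650 at 0.12. AT1G11280 (−4.49) stood between AT1G11270 at −0.51 and CRR22, a gene of chloroplast RNA editing, at 0.20. None of these 6 neighbours had a difference of size 0.8 or more, while the 3 members reach that size by the rule and were picked as the largest. AT1G12400 (−2.35) followed KEU, which encodes a protein of vesicle fusion at cell division, at 0.05. AT1G20030 (−0.89) followed the tubulin gene TUB5 at 0.11, and AT1G18810 (1.04) followed the MADS-box gene AGL65 at 0.02. AT1G09440 (1.05) had the kinase gene Haspin on its far side at −0.62, opposite in sign. In a window of 5 measured places on each side of the 6 largest differences, 51 of 60 other probe sets differed from WT by less than 0.5 in er-2, and the 60 ran from −0.87 to 1.71. The upper end of that range was AT1G23850, itself a member. Of all non-members of the interval, 8.46% differed by 0.5 or more. The share at 0.5 or more was larger in the windows, also with AT1G23850 left aside.

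**Figure D4:**
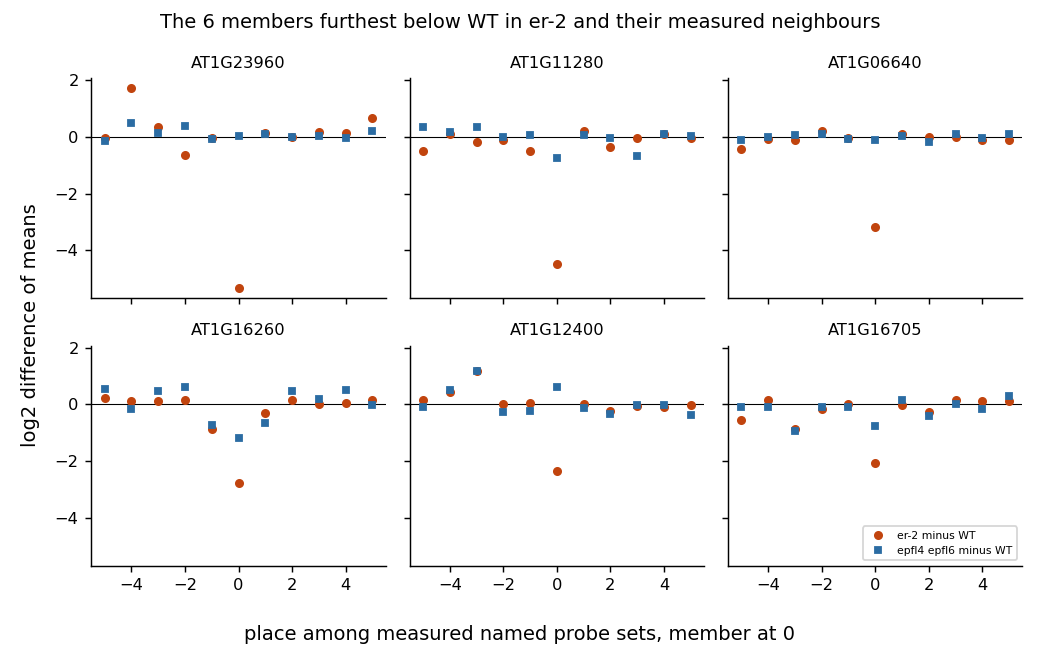
Log2 difference from WT of er-2 (circles) and epfl4 epfl6 (squares) at the 6 members furthest below WT and the 5 measured named probe sets on each side, with the member at place 0. In each panel the er-2 circle at 0, from −5.34 to −2.08, lies below the circles around it. The panels were chosen for these large differences, so nothing is read from this.

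Both directions also occurred within single genomic clones. RefSeq lists the name of a sequenced clone as a synonym for 37 members, and 4 clones held 2 members each. In all 4 the 2 members went opposite ways. Clone T23E23 held AT1G23960 at −5.34 and AT1G23850 at 1.71, and its 11 other measured genes ran from −0.66 to 0.66. Clone F21F23 held AT1G13650 at 1.34 and AT1G13750 at −1.21, with 8 others from −1.04 to 0.55. Clone F12F1 held AT1G11880 at −0.83 and AT1G12080 at 0.91, with 17 others from −0.31 to 0.48. Clone T2P11 held AT1G26900 at −0.89 and AT1G26930 at 0.90, with 6 others from −0.35 to 0.78. These pairs are shown because they share a clone and so lie close together.

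The same conditions were applied to the other named probe sets as a background. With ECS1 and JMT included, 43 of 1579 named probe sets of upper chromosome 1 (2.72%) met the conditions, against 9 of 1889 (0.476%) on the rest of chromosome 1 and 25 of 9947 (0.251%) on chromosomes 2 to 5. Outside the interval this made 34 of 11836, or 0.287%. Without er-2 replicate 3 it made 52 outside (0.439%), beside 44 in the interval (2.79%). Chromosomes 2 to 5 held 6, 5, 6 and 8. The direction differed in its split, with 11 lower and 23 higher outside the interval and 26 lower and 17 higher within it. Without ECS1 and JMT the interval held 24 lower and 17 higher. Differences of at least 2 that met the conditions were found for 7 of 1579 probe sets in the interval (0.443%), ECS1 among them. Outside it they were found for 3 of 11836 (0.0253%). Smaller er-2-specific differences of 0.4 to 0.8 made up 3.48% of the interval and 1.5% of the named probe sets elsewhere. With the mutants exchanged, epfl4 epfl6-specific differences of at least 0.8 were found for 1.20% of the interval and 1.34% elsewhere. As the interval was drawn around the er-2 differences, no test of its density is given.

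**Figure D5:**
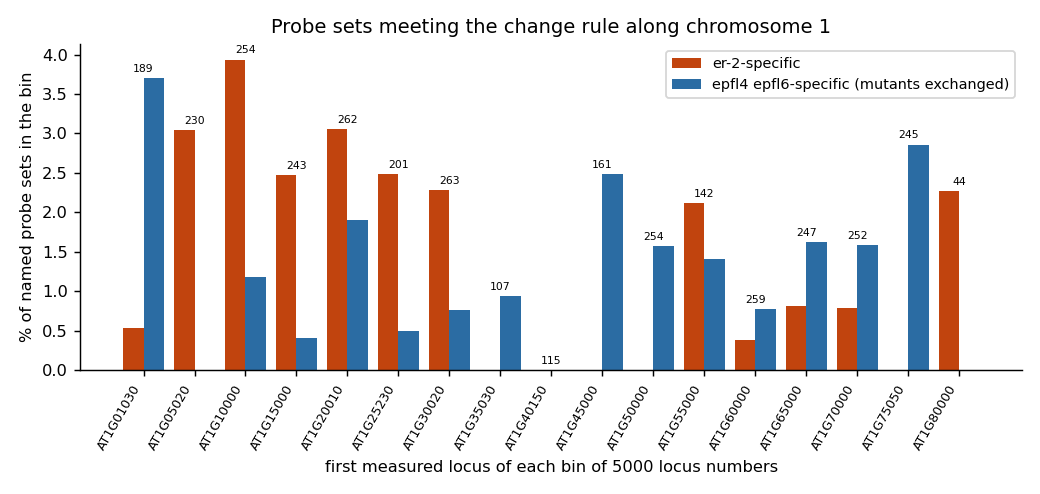
Share of named probe sets meeting the conditions in successive bins of 5000 locus numbers along chromosome 1, for er-2 (orange) and with the mutants exchanged (blue), with the number of probe sets in the bin above the bars. The er-2 share is 0.529% in the first bin, 2.28% to 3.94% in the next 6, 0% in the 4 bins after that, and up to 2.27% (1 of 44 probe sets) in the last 6.

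Along the chromosome, the first bin of 5000 locus numbers held 1 of 189 probe sets that met the conditions, and the next 6 bins held 5 to 10 each, or 2.28% to 3.94%. None was found in the following 4 bins with 107, 115, 161 and 254 probe sets, from AT1G35030 to AT1G54955. The 6 bins of the lower end of chromosome 1 then held 0 to 3 each, or 0% to 2.27%. The highest shares there were 2.11% (3 of 142) from AT1G55000 to AT1G59970 and 2.27% (1 of 44) in the last bin, close to the lowest of the 6 bins named above.

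Apart from the 43, the interval held 1536 named probe sets. Of these non-members, 350 (22.8%) were called for er-2 against WT, beside 17.2% of 11836 named probe sets elsewhere, 18.1% on the rest of chromosome 1 and 17.0% on chromosomes 2 to 5. Without er-2 replicate 1 the share was 15.2%, beside 11.5% elsewhere, and with the 3′ minus 5′ index as a covariate it was 2.73%, beside 2.23% elsewhere. The median size of their difference over all arrays was 0.134, beside 0.111 elsewhere. For epfl4 epfl6 against WT the shares called were 33.1% in the interval and 30.5% elsewhere, with median sizes of 0.150 and 0.143. The non-members called in er-2 were near balance, with 164 lower and 186 higher, and no test was made of the difference in shares, since the interval was chosen from these data.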

How the data were processed

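Total RNA of inflorescence tips was measured on 9 Affymetrix arrays of 1 colour, 3 per genotype, and biotinylated cRNA was made with a kit that primes at the 3′ end, per the labels' protocols. The deposited table gives log2 values, 1 for each probe set on each array, which the authors made with RMA, per the submitters' processing notes, which also name limma; their versions and settings are not given in the sources used here. No further normalization was applied. Arrays give no read depth, and their number limits the precision.

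Of 22810 probe sets, 64 controls were left out and 22746 tested. The platform annotation gave 13513 of them 1 gene, 503 several and 8730 none, and names were updated by Entrez identifier through a RefSeq table of assembly TAIR10.1. No build is named for the array, so that table served for names and order only. In the interval 1579 probe sets (1557 genes) were named, 5 of them, with AT1G32920 among the members, by the platform annotation alone, and 184 carried a symbol other than a locus tag. No function is stated for members whose name is a locus tag.

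Genotype means, SDs and the membership rule were computed from the log2 values. The fit was limma 3.58.1 in R 4.3.3 over all 9 arrays with a mean per genotype, two-sided, with Benjamini-Hochberg adjustment over 22746 probe sets and a call at an adjusted p under 0.05. Standard errors come from this fit. The code of the fit was run on simulated data with independent noise on each array. Those data held no quality index that follows genotype, so they cannot show whether the standard errors hold for the real arrays. The p-values set a difference between genotypes against the spread of arrays within genotypes, pooled over the 3 genotypes. The genes named are the 10 largest differences in each direction, members with a descriptive symbol, neighbours of members, and the 3 probe sets just inside and just outside the size limit; other genes are said to be named for their values. The members, lists and rules were chosen with earlier results of these data known. Alternatives were repeated quantile normalization, median centring, size limits of 0.7 and 1, a specificity limit of 25%, no separation of arrays, omission of the 30% dimmest probe sets, the replicate block, a variance trend, array weights, 6 arrays, the 3′ minus 5′ index (from 6 control pairs) as a covariate, and each array left out.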

Additional observations from a re-analysis of the deposited data

How the results depend on the processing

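The number of members, 41, was within 1.5 times under repeated quantile normalization, median centring, size limits of 0.7 and 1, no separation of arrays and omission of the 30% dimmest probe sets, and it was 35 to 44 when single arrays were left out (34 shared members without er-2 replicate 2). With the specificity limit at 25% it fell to 23, which is a stricter form of the rule. The percent of the interval meeting the conditions, 2.72, went to 1.52 at 25% and to 3.73 without the dimmest probe sets, which shortens the list of probe sets counted, and it was 2.34 to 2.91 with single arrays left out. The count called for er-2 against WT, 41, was 41 to 41 with single arrays left out, beside 14.3% to 20.5% of all tested probe sets. It was 41 with the replicate block (19.2%) and 25 with the 3′ minus 5′ index as a covariate (2.85%). The count called for er-2 against epfl4 epfl6, 41, was 40 to 41, 41 and 11 in the same order, beside 14.6% to 20.2%, 18.7% and 0.29%. The rule used the values of both contrasts, so these counts show nothing of stability. With the covariate the calls for er-2 against WT over all probe sets also went from 20.8% to 2.85%. The members' standard errors grew 1.97-fold (median) against WT and 2.62-fold against epfl4 epfl6. Their differences from WT were 1.00 times those reported (median, range 0.450 to 1.53). Those from epfl4 epfl6 were 0.988 times (median, range −0.0121 to 1.89). The sign was that reported in 41 of 41 and 40 of 41. The index did not overlap between genotypes (WT 2.30 to 2.58, er-2 2.08 to 2.22, epfl4 epfl6 1.61 to 1.72). Index and genotype are therefore hard to tell apart in this fit. The percent of non-members called for er-2 against WT, 22.8, was 26.4 with array weights, 20.5 with the 6 arrays compared, 33.6 without the dimmest probe sets, 2.73 with the covariate (2.23 elsewhere), and 15.2 to 22.4 with single arrays left out. It was 21.4 with the replicate block, beside 15.8 elsewhere. Labels share replicate numbers but no source; deviations of same-numbered arrays correlated at −0.19 to 0.29, above 0.1 in 3 of 9 pairs, so the numbers were not taken as pairing. The er-2 difference of single members moved by at most 0.275 in 328 recomputations, most of which leave out 1 array; there the rule fixes the sign, and this shows nothing of stability. A planned comparison with paralogues was not run, since no protein sequences were used here. Each gene rests on 1 probe set and 3 arrays per genotype.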
